A study of Bos taurus with 11 samples.

Results

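*MiR-193* and *miR-365* are paired microRNA families of mammals, and their levels in the mammary gland of dairy cows are described here. The members were chosen by name as 5 mature miRNAs of the deposited count table, *bta-miR-193a-5p*, *bta-miR-193a-3p*, *bta-miR-193b*, *bta-miR-365-5p* and *bta-miR-365-3p*, written below without the prefix for cattle. All 5 were among the 796 rows of the table and all had at least 1 read. Small RNA was sequenced from a mammary gland biopsy of each of 5 Holstein and 6 Montbéliarde cows, all at mid-lactation and fed alike, with 1 library per cow. The biopsies were taken from the rear udder, and a Holstein cow with mastitis had been left out by the study. The only difference between the groups that the labels give is breed, with no treatment, and their age is not given in the labels. Libraries are named by the tags in their titles. The Holstein tags run from CNLX1 to CNLX9 and the Montbéliarde tags from CNLX13 to CNLX23, so an effect of tag order and an effect of breed cannot be told apart.

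A miRNA is cut from a hairpin, and the arms of the hairpin, named 5p and 3p, can both yield a mature strand that guides the silencing of matching mRNAs. In mammals a *miR-193* gene lies beside a *miR-365* gene at each of a pair of loci, from which they are transcribed together. *MiR-193a-3p* and *miR-193b* share the seed, the stretch that selects targets, and *miR-365-3p* has the same mature strand from both of its genes. The family has been studied as a brake on cell growth and in brown fat formation. In the mouse mammary gland, the *miR-193b* locus is controlled by STAT5, the factor that relays the prolactin signal, and restrains stem and progenitor cell activity.

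In the RefSeq annotation of the cow assembly ARS-UCD2.0, *MIR193B* and *MIR365-1* were next to each other inside the long noncoding gene *LOC100849865*, between the protein-coding genes *MRTFB* and *PARN*. *MIR193A* and *MIR365-2* formed the other pair, with *MIR2333* between them, before *RAB11FIP4*. A further gene, *MIR193A-2*, was inside *ZNF623*. The deposited table also has a row named *miR-193a* without an arm. It is not a member, and no file pairs it with one of these genes. The reads of *miR-365-3p* could not be divided between *MIR365-1* and *MIR365-2*. The study used an earlier assembly, btau5.0.1, so no coordinates are given.

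By level, all members but *miR-365-5p* were in the upper part of the table. Levels are given as normalized read counts, the raw reads divided by 1 size factor per library. By mean level over the 11 libraries, *miR-193a-3p* had rank 127 of the 796 rows, *miR-193b* rank 157, *miR-365-3p* rank 159, *miR-193a-5p* rank 167 and *miR-365-5p* rank 619. Together they held between 0.0143% and 0.0317% of the reads of a library. Libraries had between 6087865 and 16808976 counted reads. In single libraries *miR-193a-3p* had between 310 and 2050 raw reads and *miR-193b* between 154 and 587. *MiR-365-3p* had between 151 and 523 raw reads and *miR-193a-5p* between 118 and 430. Mature miRNAs are of almost equal length, but the ligation of adaptors favours some of them, so the order of levels is that of the reads.

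A Montbéliarde library, CNLX15, stood apart from the rest and bears on several values below. Of 317 miRNAs with a mean normalized read count of at least 20, 104 (32.8%) had their highest level in CNLX15 and 77 (24.3%) their lowest. Its summed level of stromal miRNAs, those of connective tissue and smooth muscle, was the highest of all libraries at 3866930, and that of leukocyte miRNAs was also the highest, at 39422. Its summed level of epithelial miRNAs, 181193, had rank 10 of 11. Most of each sum comes from 1 miRNA, *miR-143* in the stromal, *miR-142-5p* in the leukocyte and *miR-141* in the epithelial list. Fewer cells of a type and less RNA per cell cannot be told apart in such biopsies.

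*MiR-193a-3p* was the most abundant member. Its normalized read counts were 637.4, 739.1, 745.8, 784.2 and 658.0 in the Holstein libraries CNLX1, CNLX3, CNLX5, CNLX7 and CNLX9. In Montbéliarde the lowest was 387.4 in CNLX15, the median 789.5 and the highest 1608 in CNLX23. The Holstein cows were thus close together, and the Montbéliarde cows lay on both sides of them, with 3 libraries above the highest Holstein library and 1 below the lowest. The Holstein mean was 712.9 ± 62.39 (SD, n = 5) and the Montbéliarde mean 857.9 ± 413.7 (SD, n = 6). CNLX23 was 1.75-fold above the next highest library and 2.24-fold above the median of the other 10. In CNLX23 the summed levels of the leukocyte list, 17229, the endothelial list, 239684, and the muscle list, 468, were the lowest of the 11 libraries, and their part in this value was not tested.

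*MiR-193a-5p*, the other arm of the same hairpin, was less abundant. The Holstein libraries, in the same order, had 237.0, 205.8, 259.5, 224.9 and 293.2 normalized reads. The Montbéliarde libraries ranged from 147.5 in CNLX15 to 290.2 in CNLX23, with a median of 245.9. CNLX15 and CNLX21, at 157.2, were below every Holstein library, and no Montbéliarde library was above all of them. The means were 244.1 ± 33.66 (SD, n = 5) and 226.1 ± 60.39 (SD, n = 6).

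*MiR-193b*, the member of the other cluster with the same seed as *miR-193a-3p*, was at similar levels in all libraries but 1. Its levels in Holstein were 267.8, 315.3, 273.9, 316.6 and 332.3. In Montbéliarde the lowest was 256.7 in CNLX13, the median 291.8 and the highest 733.5 in CNLX15. CNLX15 was 2.17-fold above the next highest of all libraries, and the other Montbéliarde libraries, at 256.7 to 337.8, overlapped the Holstein range. The means were 301.2 ± 28.56 (SD, n = 5) and 361.5 ± 185.0 (SD, n = 6).

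*MiR-365-3p*, the strand that both clusters can give, had 263.4, 283.6, 287.8, 341.0 and 299.7 normalized reads in Holstein. In Montbéliarde it ranged from 251.7 in CNLX13 to 410.3 in CNLX23, with a median of 342.0. There, 3 libraries were above the highest Holstein library and 1 was below the lowest. The means were 295.1 ± 28.81 (SD, n = 5) and 331.2 ± 58.65 (SD, n = 6). It had no library as far from the others as CNLX15 was for *miR-193b* or CNLX23 for *miR-193a-3p*.

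*MiR-365-5p*, the opposite arm, was almost not read. It had 3 reads in CNLX3, 1 in CNLX5 and 1 in CNLX23, and none in the other 8 libraries. These 5 reads were 0.136% of the 3681 reads of both *miR-365* arms, with an exact 95% binomial confidence interval of 0.0441 to 0.317%. In the 8 libraries without a read, a count of 0 allows a share of up to between 0.58 and 1.99%. Such intervals and limits hold for counting error alone, because copies made by PCR are counted as reads. Among 30 hairpins with both arms in the table and at least 1000 reads, the minor arm held 10.7% of the reads in the median hairpin, and *miR-365* had the seventh lowest share. Because the 3p reads can come from both *miR-365* genes, this share and its rank need not be those of 1 hairpin. In *miR-193a* the minor arm, 5p, held 22.3%, above that median.

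**Figure D1:**
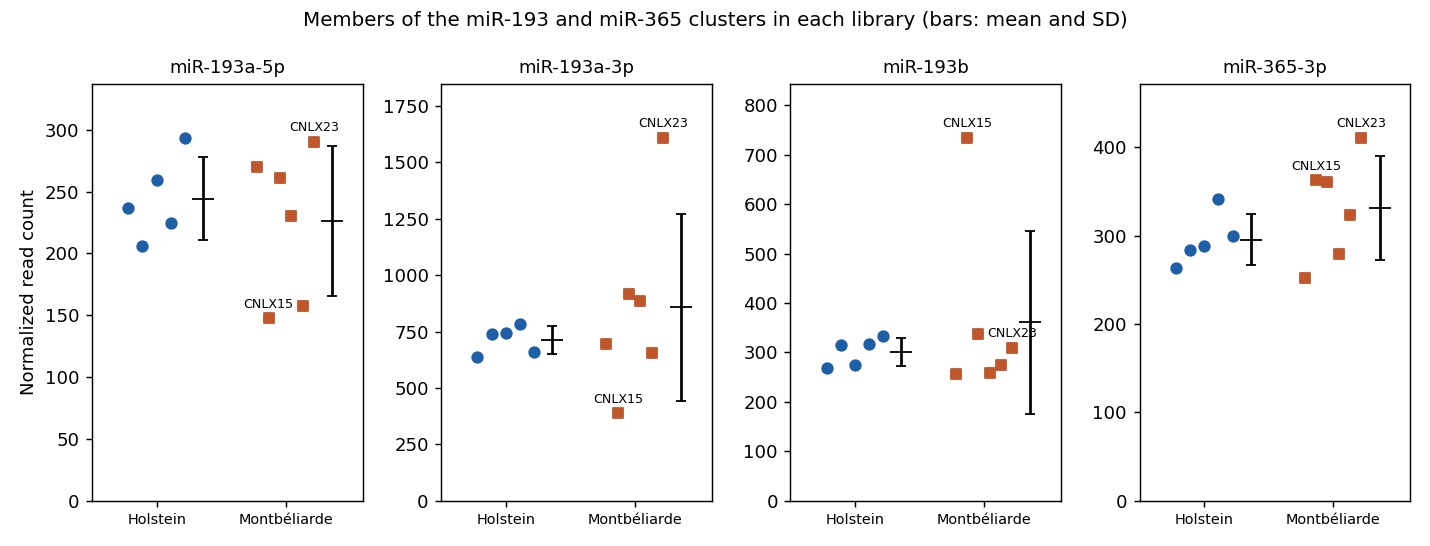
Normalized read counts (linear axis from 0) of the 4 members above the filter on low counts in each library, with circles for Holstein (n = 5), squares for Montbéliarde (n = 6), and the mean and SD of each breed as a black bar. The Holstein libraries lie close together, while CNLX15 is highest for *miR-193b* at 733.5 and CNLX23 highest for *miR-193a-3p* at 1608.

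The spread between cows differed among the members. In Holstein the coefficient of variation was 8.752% for *miR-193a-3p*, 9.482% for *miR-193b*, 9.762% for *miR-365-3p* and 13.79% for *miR-193a-5p*. In Montbéliarde the coefficients were 48.22% for *miR-193a-3p*, 51.17% for *miR-193b*, 17.71% for *miR-365-3p* and 26.71% for *miR-193a-5p*. The median coefficient of the 317 miRNAs above was 16.72% in Holstein and 33.03% in Montbéliarde. All 4 members thus varied less than the median miRNA in Holstein, and in Montbéliarde *miR-193a-3p* and *miR-193b* varied more than it and the others less. These coefficients rest on single libraries. That of *miR-193b* was 12.4% without CNLX15, where the median was 25.4%, and that of *miR-193a-3p* was 30.0% without CNLX23, where the median was 31.5%.

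The breed comparison asks whether a miRNA differs between the mammary glands of Holstein and Montbéliarde cows. Milk yield, in which the study found the breeds to differ, entered no test. No member passed the breed comparison. With edgeR's quasi-likelihood test over the 550 miRNAs with at least 10 reads in all, 0.364% of the miRNAs had an adjusted p of at most 0.05, and 0 of the 4 members tested did. At an unadjusted p of at most 0.05 it was 14.2% of all miRNAs and again 0 of the 4 members. DESeq2 called 3.96% of the 505 miRNAs to which it gave an adjusted p and limma-voom 0.364% of 550, with 0 of the 4 members each. At such shares a set of 4 miRNAs would mostly hold no call. Breeds that did not overlap in any library were found for 2.0% of the miRNAs tested and for 0 of the 4 members.

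Fold changes are on the log2 scale, above 0 where Montbéliarde was higher. For *miR-193a-3p* the log2FC was 0.26 (standard error 0.28, 95% interval -0.33 to 0.86, adjusted p = 0.716). The log2FC of *miR-193b* was 0.24 (standard error 0.25, interval -0.30 to 0.78, adjusted p = 0.713). For *miR-365-3p* the estimate was 0.15 (standard error 0.17, interval -0.21 to 0.52, adjusted p = 0.727). Only that of *miR-193a-5p* was below 0, at -0.12 (standard error 0.21, interval -0.57 to 0.33, adjusted p = 0.832). All are from edgeR with Benjamini-Hochberg adjustment. None of the 4 intervals reaches a difference of 1 on the log2 scale in either direction. *MiR-365-5p*, with 5 reads in all, was below the filter. With the filter lifted, edgeR gave it an adjusted p of 0.563, and DESeq2 an unadjusted p of 0.56 and no adjusted p.

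Single Montbéliarde libraries set most of these differences. Without CNLX15 the log2FC of *miR-193b* was 0.01, whereas that of *miR-193a-3p* was 0.49 (unadjusted p = 0.0353, adjusted p = 0.294 from edgeR). At an unadjusted p of at most 0.05 in that fit, 55 of 542 miRNAs were higher in Montbéliarde and 24 in Holstein. Without CNLX23 the log2FC of *miR-193a-3p* was -0.02 and that of *miR-365-3p* 0.08. For *miR-193a-5p* the sign turned without CNLX15, at 0.06, and without CNLX21, at 0.02. The median log2FC of all miRNAs tested was 0.102 and 0.066 in these fits, against 0.027 with all libraries. With both CNLX15 and CNLX23 left out, the log2FC values were 0.15 for *miR-193a-3p*, -0.09 for *miR-193b*, 0.05 for *miR-365-3p* and -0.08 for *miR-193a-5p*. In that fit edgeR called 0 of the 4 members, and 4 of all 531 miRNAs tested.

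**Figure D2:**
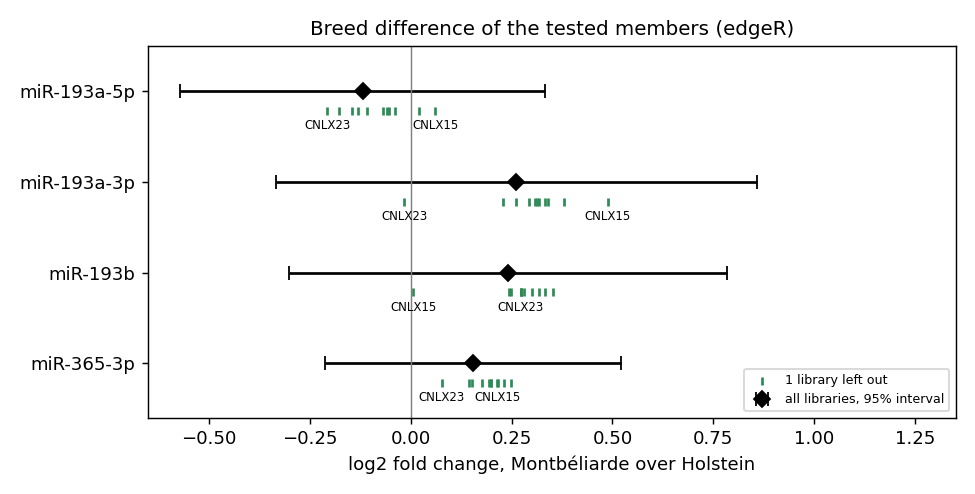
Log2 fold change, Montbéliarde over Holstein, of each tested member from edgeR (diamonds with 95% intervals, 11 libraries) and the same value with each library left out in turn (green ticks, CNLX15 and CNLX23 named). Each interval spans 0, and the estimate of *miR-193b* is near 0 without CNLX15 and that of *miR-193a-3p* near 0 without CNLX23.

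Ratios within a library need no scaling between libraries, and 4 were compared between breeds with a two-sided exact permutation test. Raw reads of *miR-193a-3p* exceeded those of *miR-365-3p* in 11 of 11 libraries and those of *miR-193b* in 10 of 11. *MiR-193b* and *miR-365-3p* were at nearly equal levels, the first ahead in 5 libraries and the second in 6, and their order was thus not distinguishable. Both exceeded *miR-193a-5p* in 10 of 11 libraries.

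For *miR-365-3p* over *miR-193b*, the neighbours of 1 cluster, the ratio was 0.899 to 1.08 in Holstein, with a median of 0.984. In Montbéliarde it was 0.494 in CNLX15 and otherwise between 0.981 and 1.32. The mean log2 ratios were -0.03 ± 0.12 (SD, n = 5) and -0.03 ± 0.50 (SD, n = 6), with no detectable difference (exact permutation p = 0.944, adjusted p = 0.996 over the 4 ratios). Without CNLX15 the breeds differed by 0.19 in log2 ratio (exact permutation p = 0.0635, adjusted p = 0.127).

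For *miR-193b* over *miR-193a-3p*, the members with the same seed, the ratio was 0.367 to 0.505 in Holstein and 0.193 to 1.89 in Montbéliarde. The value of 1.89 was that of CNLX15, the only library with more *miR-193b* than *miR-193a-3p*. There, *miR-193b* held 65.4% of the 897 reads of the pair (exact 95% interval 62.2 to 68.6%). In the other 10 libraries it held between 16.2% and 33.6%, the lowest in CNLX23 (interval 14.7 to 17.7%) and the highest in CNLX9 (interval 30.2 to 37.0%). Between breeds the mean log2 ratio differed by 0.015 (exact permutation p = 0.944, adjusted p = 0.996). This value rests on CNLX15, without which it was -0.41 (exact permutation p = 0.0635, adjusted p = 0.127).

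The arm ratio of *miR-193a*, 5p over 3p, had a median of 0.348 in Holstein and 0.273 in Montbéliarde. It ran from 0.278 in CNLX3 to 0.446 in CNLX9 and from 0.18 in CNLX23 to 0.388 in CNLX13. The breed means differed by -0.29 on the log2 scale, within the spread between cows (exact permutation p = 0.216, adjusted p = 0.866). In CNLX15 both arms were low, and its arm ratio lay within the Holstein range. In CNLX23, by contrast, only the 3p arm was far above the other libraries, since its 5p arm was 0.99 times the highest level among them. The 4th ratio, *miR-365-3p* over *miR-193a-3p*, gave an exact permutation p of 0.996. The smallest p that this test can give with 5 and 6 libraries is 0.00216.

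**Figure D3:**
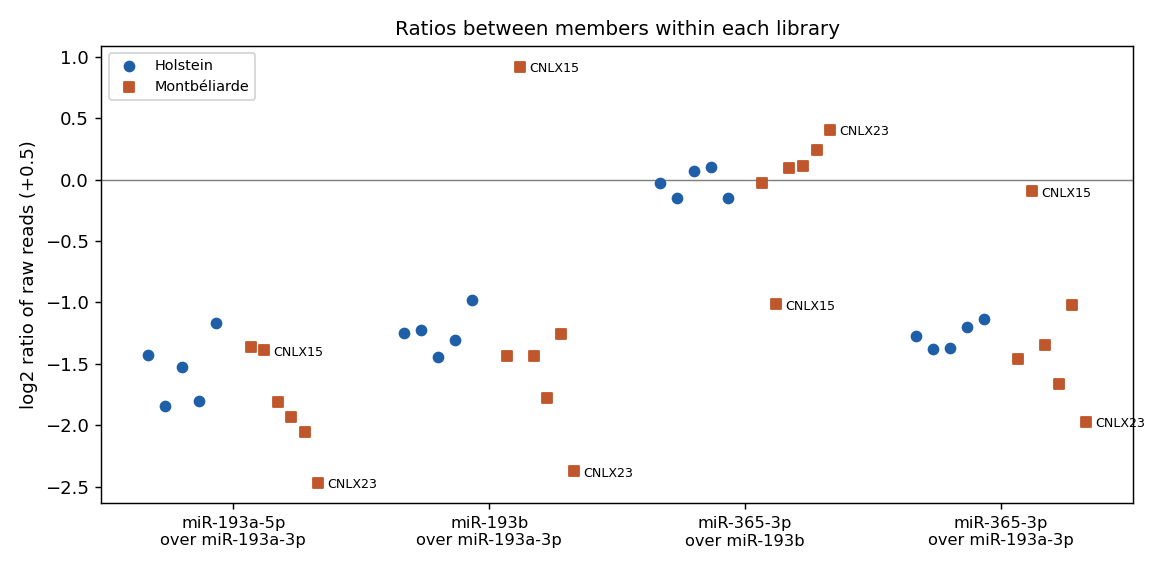
Log2 ratio of raw reads, each with 0.5 added, for 4 pairs of members in each library (circles Holstein, n = 5, and squares Montbéliarde, n = 6). *MiR-365-3p* over *miR-193b* lies near 0 except in CNLX15, which is also alone in having *miR-193b* above *miR-193a-3p*, while CNLX23 has the lowest arm ratio of *miR-193a*.

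Levels of members were compared across the 11 libraries on the log2(normalized read count + 1) scale. Together with the relations of members to lists of cell type markers, 30 relations formed the family. By permutation, 6 of the 30 Pearson and 3 of the 30 Spearman coefficients had an unadjusted p of at most 0.05, and 0 of either had an adjusted p of at most 0.05. The lowest adjusted p was 0.213 for Pearson and 0.269 for Spearman coefficients.

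The arms of *miR-193a* had r = 0.64 (permutation p = 0.0346, adjusted p = 0.213) and rho = 0.42 (permutation p = 0.204, adjusted p = 0.612). Without the 2 libraries farthest from the median of *miR-193a-5p* r was 0.32. Leaving out the extremes also narrows the range, so this drop alone cannot show that the relation rests on them. The r of the arms was 0.39 without CNLX15, 0.7 centred within breed and 0.81 within Montbéliarde (n = 6). *MiR-193b* and *miR-365-3p* had r = 0.51 (permutation p = 0.0945, adjusted p = 0.3) and rho = 0.75 (permutation p = 0.0109, adjusted p = 0.269). Their r was 0.54 without the 2 farthest libraries, 0.49 centred within breed and 0.63 without CNLX15.

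Between *miR-193a-3p* and *miR-193b* r was -0.53 (permutation p = 0.157, adjusted p = 0.354) and rho -0.01 (permutation p = 0.99, adjusted p = 0.99). Without CNLX15 this r was 0.27. *MiR-193a-3p* and *miR-365-3p*, neighbours in the other cluster, had r = 0.33 (permutation p = 0.327, adjusted p = 0.491) and rho = 0.26 (permutation p = 0.432, adjusted p = 0.863). The r between them was 0.75 without CNLX15 and -0.22 without CNLX23, and within Montbéliarde, n = 6, it was 0.28. Holstein, with 5 libraries, is too small for a coefficient of its own.

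**Figure D4:**
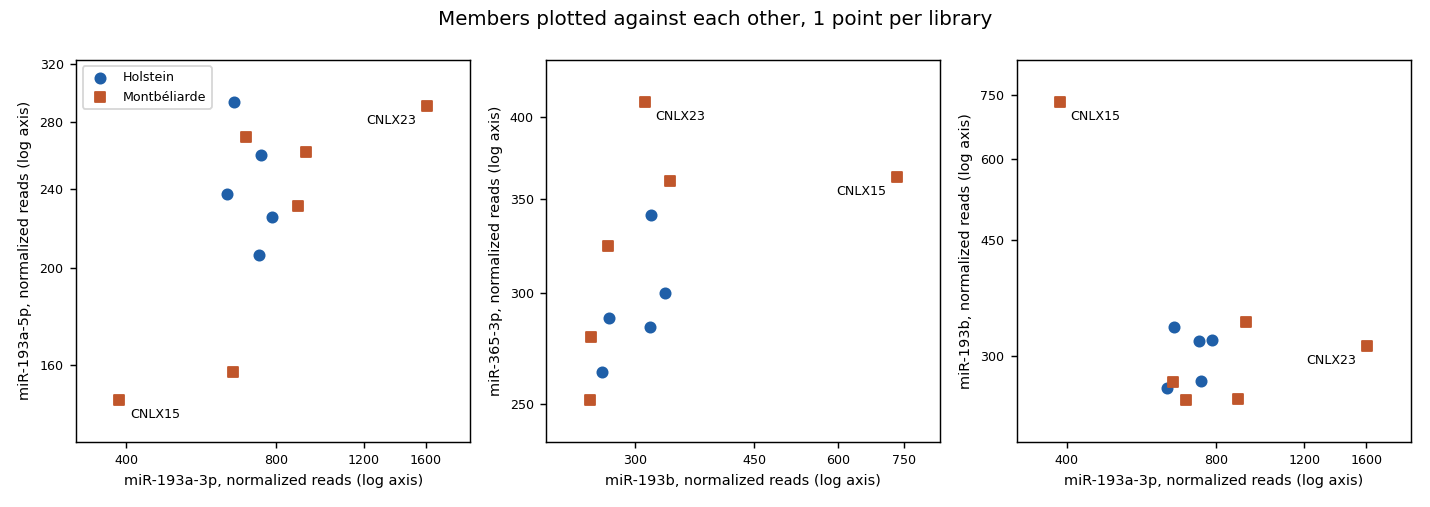
Normalized read counts of members plotted against each other on log axes, 1 point per library, circles for Holstein and squares for Montbéliarde. CNLX15 lies apart in the panels with *miR-193b*, and over the other 10 libraries *miR-193b* and *miR-365-3p* have r = 0.63 on the log2 scale.

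Summed levels of cell type markers are set beside the members because biopsies hold several cell types. The epithelial list, 6 of 6 miRNAs read in every library, had summed levels of 367535 to 466746 in Holstein and 180093 to 469496 in Montbéliarde. The stromal list, 5 of 5, had 1511914 to 2303536 and 1926891 to 3866930. Leukocyte miRNAs, 5 of 5, summed to 18031 to 26952 in Holstein and 17229 to 39422 in Montbéliarde. Of the 3 muscle markers 2 were used, and none of the markers used was at 0 in any library. The epithelial sum of 5 of the 6 Montbéliarde libraries was below every Holstein library, and that of CNLX13 was above them all. The stromal sum of 4 of the 6 was above every Holstein library. For the leukocyte sum 3 were above and 2 below all Holstein libraries. The endothelial, erythroid and muscle sums overlapped, with at most 2 Montbéliarde libraries beyond the Holstein range on a side. After adjustment, edgeR called 0 markers of these lists, against 2 of the 550 miRNAs tested. Before it, at the limit of 0.05, 2 of 6 epithelial miRNAs, *miR-141* and *miR-200c*, were higher in Holstein, where 6.55% of all miRNAs were. In Montbéliarde 2 of 5 stromal miRNAs, *miR-143* and *miR-199a-3p*, were higher, where 7.64% of all were. The lists were not uniform. Stromal *miR-145* had a log2FC of -0.27 and epithelial *miR-205* one of 0.385, while *miR-200a* and *miR-200b* were at -0.04 and -0.10. Without CNLX15, at the limit of 0.05, *miR-141* was again higher in Holstein and *miR-143* and *miR-199a-3p* in Montbéliarde. The epithelial *miR-205* was also higher in Montbéliarde there. In that fit 55 of 542 miRNAs were higher in Montbéliarde and 24 in Holstein. The sums are unweighted, so that 1 abundant miRNA makes up most of each. In the stromal list *miR-143* had a mean of 2339520 and the next miRNA 7991. The epithelial list had *miR-141* at 243915 and the next at 42590. For the leukocyte list these means were 21559, of *miR-142-5p*, and 1181, and for the endothelial list 252016, of *miR-126-5p*, and 22878. The members' levels were thus compared between breeds whose epithelial and stromal sums, led by *miR-141* and *miR-143*, lay mostly apart.

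*MiR-193a-5p* and the epithelial sum had r = 0.63 (permutation p = 0.0355, adjusted p = 0.213) and rho = 0.34 (permutation p = 0.313, adjusted p = 0.768). Its r was -0.67 with the stromal sum (permutation p = 0.0253, adjusted p = 0.213), with rho = -0.48 (permutation p = 0.14, adjusted p = 0.465). With the leukocyte sum its r was -0.69 (permutation p = 0.0185, adjusted p = 0.213), with rho = -0.61 (permutation p = 0.0514, adjusted p = 0.283). None of these relations was as strong without the 2 libraries farthest from the median of *miR-193a-5p*, with r = -0.22 for the epithelial, -0.02 for the stromal and -0.14 for the leukocyte sum. *MiR-193a-3p* and the leukocyte sum had r = -0.7 (permutation p = 0.00898, adjusted p = 0.213) and rho = -0.67 (permutation p = 0.0269, adjusted p = 0.269). Without CNLX15 and CNLX23, which are the 2 farthest libraries for *miR-193a-3p*, r was -0.39.

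*MiR-193b* and the stromal sum had r = 0.59 (permutation p = 0.0459, adjusted p = 0.23) and rho = 0.2 (permutation p = 0.561, adjusted p = 0.99), with r = 0.06 without CNLX15. The epithelial sum gave r = -0.45 with *miR-193b* (permutation p = 0.165, adjusted p = 0.354) and rho = -0.23 (permutation p = 0.506, adjusted p = 0.949). *MiR-365-3p* had its largest coefficient with the endothelial sum, r = -0.6 (permutation p = 0.0544, adjusted p = 0.233) and rho = -0.69 (permutation p = 0.0228, adjusted p = 0.269), and r was -0.33 without its 2 farthest libraries. The part of cell makeup in the members' levels was not tested.

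**Figure D5:**
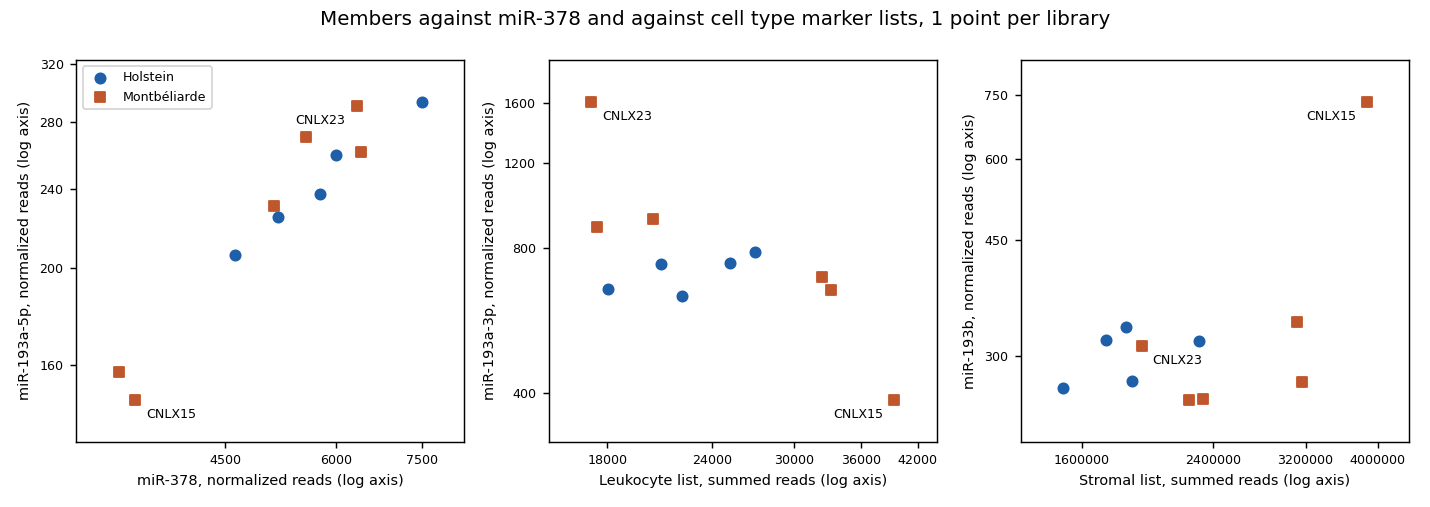
Log axes, 1 point per library: *miR-193a-5p* against *miR-378*, *miR-193a-3p* against the summed leukocyte miRNAs and *miR-193b* against the summed stromal miRNAs, all in normalized read counts (circles Holstein, squares Montbéliarde). *MiR-193a-5p* and *miR-378*, picked as the highest r among 316 miRNAs in these same libraries, have r = 0.96 over the 11 libraries. The stromal panel rests on CNLX15.

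The miRNAs with the most similar pattern to each member were sought by Pearson's r over the 11 libraries among the 316 other tested miRNAs with a mean of at least 20. These coefficients are descriptions, and the points share libraries and size factors. *MiR-193a-5p* was most like *miR-378* (r = 0.96), *miR-378c* (r = 0.94) and the epithelial *miR-200a* (r = 0.9), and most unlike *miR-146a* (r = -0.91), a miRNA of inflammatory signalling. *MiR-378*, which is encoded in a gene of mitochondrial metabolism, ranged from 4612 to 7491 normalized reads in Holstein and from 3413 to 6392 in Montbéliarde. Its highest library, CNLX9, was also the highest for *miR-193a-5p*, and both had their lowest levels in CNLX15 and CNLX21. Without CNLX15 their r was again 0.96, and that with *miR-146a* was -0.84.

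*MiR-193a-3p* was most like *miR-139* (r = 0.87), a predicted miRNA named chr10_11366_mature (r = 0.86) and *miR-425-3p* (r = 0.85), and most unlike *miR-328* (r = -0.81). For *miR-193b* the nearest were *miR-26a* and *miR-26c*, whose counts stand in a constant ratio (both r = 0.83), and *miR-223* (r = 0.82), a miRNA of neutrophils. The likeness to *miR-26a* and *miR-26c* rested on CNLX15, and that to *miR-223* was lower without this library. Without CNLX15, r was -0.06 for *miR-26a* and *miR-26c* and 0.52 for *miR-223*. For the most unlike, the predicted chr7_7966_mature, r went from -0.87 to -0.04. *MiR-365-3p* was most like *miR-18a* (r = 0.74), *miR-22-5p* (r = 0.74) and *miR-15b* (r = 0.73), and most unlike *miR-194b* (r = -0.79). No member was among the 3 nearest of another.

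The row *miR-193a* without an arm had 48.29 to 64.49 normalized reads in Holstein and 53.73 to 154.5 in Montbéliarde. Like *miR-193a-3p*, it was highest in CNLX23, where it was 1.87-fold above the next library. In the breed comparison its log2FC was 0.45 (standard error 0.28), with an adjusted p of 0.469 from edgeR. Whether it takes reads from *miR-193a-3p* was not tested.

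Of miRNAs studied in brown and beige fat of mice, the setting in which *miR-193b* and *miR-365* are best known as a pair, 19 of 20 listed were in the table and tested. After adjustment, edgeR called 0 of the 19, limma-voom 0 and DESeq2 1, where 3.96% of all miRNAs were called by DESeq2. Before adjustment, 1 was higher in Montbéliarde and 0 in Holstein in edgeR at the limit of 0.05, below the 14.2% of all miRNAs. Both times the 1 miRNA was *miR-455-5p*, with a log2FC of 0.88 (standard error 0.25). Without CNLX15, *miR-93* was also past that limit, with a log2FC of 0.36. In that fit 2 of the 19 were higher in Montbéliarde, where 55 of 542 miRNAs were. The most abundant of the list, *miR-26a*, had a mean of 576239 ± 89016 (SD) in Holstein and 641407 ± 302064 (SD) in Montbéliarde, with a log2FC of 0.14 (standard error 0.23) that was -0.07 without CNLX15. *MiR-27b* came next, its log2FC being 0.09 (standard error 0.14). The median log2FC of the list was 0.09, against 0.03 over all 550 miRNAs tested.

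The list of mammary stem, progenitor and alveolar miRNAs had 12 of 12 tested, with 0 calls in edgeR, 0 in limma-voom and 2, *miR-146b* and *miR-100*, in DESeq2, against 2, 2 and 20 calls over all miRNAs. At an unadjusted p of at most 0.05 in edgeR, 4 were higher in Montbéliarde, namely *miR-146b* (log2FC 1.58), *miR-100* (0.99), *miR-31* (0.73) and *let-7c* (0.51), and 1, *miR-200c* (-0.61), was higher in Holstein. These 5 were singled out after their values were seen, and *miR-200c* is also in the epithelial list. Over all miRNAs 42 of 550 were higher in Montbéliarde and 36 in Holstein at that limit. Without CNLX15 the list had 5 higher in Montbéliarde, the same 4 and *miR-205*, and 1 in Holstein, *miR-183*. In that fit 55 of 542 miRNAs were higher in Montbéliarde and 24 in Holstein. *MiR-200c*, at -0.37, had an unadjusted p of 0.0629 from edgeR there. Of the most abundant in the list, *miR-10b* was estimated at -0.09 (standard error 0.25) and *miR-22-3p* at -0.20 (standard error 0.17). The median log2FC of the list was 0.23.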

How the data were processed

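The authors deposited a table of raw read counts, 1 row per mature miRNA, without normalization. Before deposit, the authors trimmed adaptors with FASTX-Toolkit, filtered reads by length and ambiguous bases, and quantified them with ncPRO-seq and miRDeep2 against btau5.0.1 and miRBase. They also deposited a signal, the normalized read counts, which are counts divided by DESeq2 size factors (version 1.18.1 per the labels). The levels given above are these values. The breed means that the authors deposited were not used here. Their log2 fold changes, p-values and adjusted p-values are in the deposited table too and were not used. How reads matching several miRNAs were counted is not given in the sources used here.

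Breeds were compared on raw counts with edgeR 4.0.16 in R 4.3.3 (TMM, robust glmQLFit, glmQLFTest) over miRNAs with at least 10 reads summed over 11 libraries, which 4 of the 5 members passed, with Benjamini-Hochberg adjustment at 0.05. DESeq2 1.42.0 and limma 3.58.1 were alternatives, besides other normalizations, filters and covariates and each library left out. Ratios (0.5 reads added) were compared with exact permutation tests, correlations with 100000 permutations, using scipy 1.17.1. Values of the lists and coefficients of variation without CNLX15 or CNLX23 were added after the data were seen. The planned ratio of the *miR-365* arms was not tested, since 5p had at most 3 reads per library. The edgeR step was tested on simulated data. Each library is 1 cow. Between pairs of libraries of a breed the chi-square per degree of freedom was at least 192, where sampling noise alone gives about 1. It was taken over all tested miRNAs together, of which the abundant weigh most. Named were the members, the 3 miRNAs nearest in pattern to each and the 1 farthest, and the most abundant of each list. Other miRNAs of the lists were named for their breed difference, after the values were seen. The members and lists were chosen with earlier results of these data known.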

Additional observations from a re-analysis of the deposited data

Results flagged for a closer look

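Among 16 sets of values, 4 members and 4 ratios in each breed, 3 held a library far from the others by Dixon's criterion, where chance gives about 1 in 20, or 0.8 sets. All 3 were values of the Montbéliarde library CNLX15 that involve *miR-193b*, and they are not independent of each other. The normalized read count of *miR-193b* was 734 there, against 338 in the nearest Montbéliarde library and 257 in the lowest. The ratio of *miR-193b* to *miR-193a-3p* was 1.89, against 0.418 in the nearest library. The ratio of *miR-365-3p* to *miR-193b* was 0.494, against 0.981 in the nearest. The level of 1608 for *miR-193a-3p* in CNLX23 did not meet the criterion.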

How the results depend on the processing

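In 22 other fits of the breed difference, 0 members were called, where 0 to 20 of all miRNAs were, and the log2FC of *miR-365-3p* kept its sign, between 0.05 and 0.25. With each library left out, the log2FC ranged from -0.21 to 0.06 for *miR-193a-5p* and from -0.02 to 0.49 for *miR-193a-3p*. That of *miR-193b* was -0.09 without CNLX15 and CNLX23 together, a setting chosen after the data were seen. With medians in place of means, the ratio differences were -0.19 for *miR-193b* over *miR-193a-3p*, 0.13 for *miR-365-3p* over *miR-193b* and -0.13 for *miR-365-3p* over *miR-193a-3p*. With each library left out they ranged from -0.41 without CNLX15 to 0.24 without CNLX23, from -0.09 to 0.19 and from -0.22 to 0.16. No ratio difference and no correlation passed the threshold under any alternative run. With each library left out, r ranged from -0.77 to 0.27 for *miR-193a-3p* with *miR-193b*, from -0.22 to 0.75 for *miR-193a-3p* with *miR-365-3p*, from -0.75 to 0.26 for *miR-193a-5p* with *miR-193b* and from -0.46 to 0.1 for *miR-193a-5p* with *miR-365-3p*. The last was 0.3 on CPM values. Without the 2 farthest libraries r was 0.14 for *miR-193a-5p* with *miR-193b*, 0.32 for *miR-193a-5p* with *miR-365-3p* and 0.23 for *miR-193a-3p* with *miR-193b*. The cause of these turns of sign was not tested. The breeds share no replicate numbers, so no pairing was used. At 5 reads in all, no difference in *miR-365-5p* was detectable.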
